A study of Saccharomyces cerevisiae with 9 samples.

Results

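Strains lacking one of 10 genes of the cytosolic Hsp70 system and its partners were followed through pooled growth in arsenite: the Hsp70s SSA1, SSA2 and SSA4, the nucleotide exchange factors SSE1 and SSE2, the disaggregase HSP104, the small heat shock proteins HSP26 and HSP42, and the J proteins YDJ1 and SIS1. They were chosen by gene name as 10 of the 5101 Saccharomyces cerevisiae deletion strains with a named tag. A strain carries short DNA tags that mark it in a mixed culture, and 2-colour arrays compared the tags of an arsenite culture (Cy3) with those of a control culture (Cy5) begun from the same cells. All 10 strains had a value on at least 1 of the 9 arrays. SSA2, SSA4, SSE2, HSP104, HSP26 and SIS1 were read by 2 tags, and SSA1, SSE1, HSP42 and YDJ1 by 1 tag.

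The pools descend from BY4743, an S288C diploid with ura3delta0, leu2delta and his3delta1, heterozygous for lys2delta0, met15delta0 and can1delta::LEU2-MFA1pr-HIS3, in which each strain has 1 gene replaced by kanMX. On 6 arrays the strains were MATa haploid spores, grown to confluence at 30 °C on plates that select them, with 0, 100, 200, 400, 800 or 1600 µM sodium arsenite. On 2 arrays the heterozygous diploids themselves grew for 10 generations in YPD liquid medium with 0 or 450 µM. The last array held haploids that also carry a pfd1::TEF1pr-URA3 disruption, which removes a prefoldin subunit, at 5 µM; its control plates contained uracil and its arsenite plates did not. Each condition has 1 array, so no value has a replicate culture behind it, and slow growth and death cannot be told apart.

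Hsp70 proteins bind exposed hydrophobic stretches of unfolded proteins and release them in a cycle driven by ATP. J proteins such as Ydj1 and Sis1 bring clients and start hydrolysis, and the Hsp110 proteins Sse1 and Sse2 exchange the nucleotide so that the client is let go. Hsp104 pulls proteins out of aggregates together with Hsp70 and J proteins, while Hsp26 and Hsp42 hold unfolding proteins in a form from which they can be recovered. Arsenite binds thiols and makes newly made proteins misfold.

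Each value below compares a strain's tags between the arsenite and the control culture as a log2 ratio, counted from the median strain of its array; below 0 the strain was rarer under arsenite than that median strain. This direction is likely rather than settled: ARR3, the arsenite exporter, read -5.51 at 100 µM and FPS1, the channel by which arsenite enters, 4.18 at 800 µM, and with the sign turned every loss would read as a gain. Uracil synthesis strains were also low on the pfd1 array, where only the arsenite plates lacked uracil. URA1, URA2, URA4 and URA5 read -5.23, -4.88, -3.98 and -4.32 there. Between 2508 strains (haploid 1600 µM) and 4904 strains (heterozygous 450 µM) had a value per array. The error of a value is taken from the disagreement between the tags of all strains with 2 tags. It was 0.38 for 1 tag and 0.27 for 2 tags at 0 µM, rising to 0.56 and 0.39 at 1600 µM, and it leaves out differences between cultures. The background range is the central 99% of the 0 µM array, from -1.39 to 1.37 in haploids and from -0.87 to 1.13 in heterozygous diploids.

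**Figure D1:**
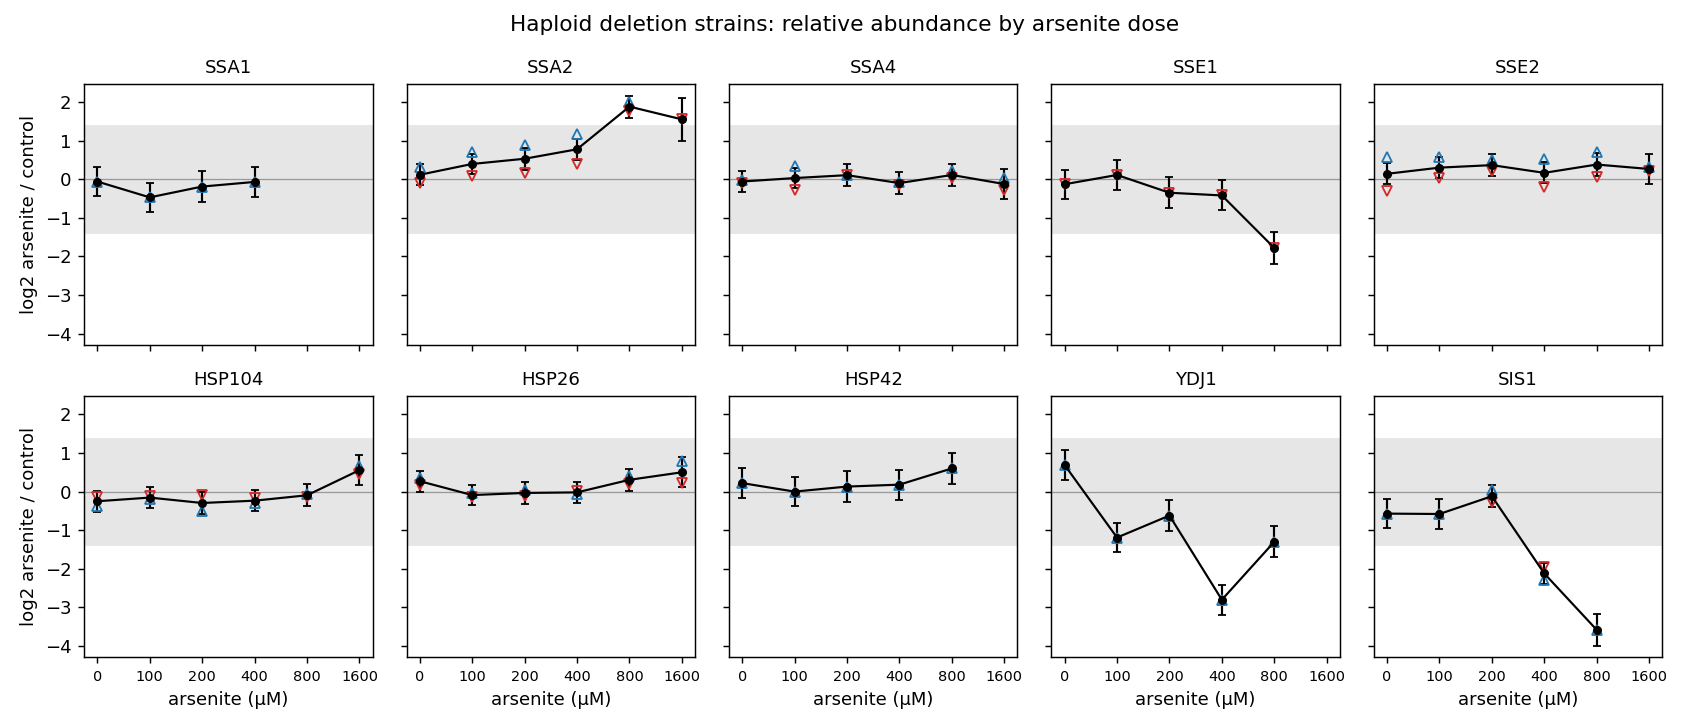
Relative abundance of each haploid strain (log2 arsenite over control, vertical axis) by arsenite dose in µM (horizontal axis, equal steps). Black points are strain means with the tag error, blue and red triangles the single tags, and the grey band the background range of the 0 µM array. SIS1 and SSE1 lie below the band and SSA2 above it at 800 µM, YDJ1 lies below it at 400 µM, and the other strains stay inside it.

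In the haploid pool the strains spread in both directions at the highest doses. At 800 µM the J protein strain SIS1 read -3.58 and the exchange factor strain SSE1 -1.78, whereas the Hsp70 strain SSA2 read 1.88. The strains lacking the disaggregase, either small heat shock protein, SSA4 or SSE2 lay between -0.10 and 0.60. Below the background range were 2 of the 9 strains measured there, against 11.8% of all strains at that dose, and above it 1 of 9, against 7.36%. At 400 µM 2 of 10 lay below (SIS1 and YDJ1), against 5.75% of all strains, and 0 of 10 above, against 0.825%. At 0, 100 and 200 µM 0 of 10 lay outside the range, where 1.02%, 1.2% and 2.37% of all strains did.

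The test across doses was the slope per dose step from 0 to 800 µM, fitted with limma over 3731 strains. None of the 9 members with a value at all 5 doses passed an adjusted p of 0.05 (0 of 9, against 3.11% of all strains); 3 of 9 had an unadjusted p under 0.05, against 27.9% of all strains. The median slope of the 9 was 0.02, that of all strains 0.01. Dose order is the only replication in this fit, and a response confined to the highest dose counts partly as scatter. With dose taken in µM in place of equal steps, 3 of 9 members passed (2 of 9 lower, SIS1 and SSE1, against 14.8% of all strains, and 1 of 9 higher, SSA2, against 12.7%), and so did 27.6% of all strains in either direction.

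Of the Hsp70 genes, SSA1 and SSA2 encode near-identical proteins present in unstressed cells, and SSA4 one that is made on stress. Of these 3 strains only SSA2 left the range. SSA2 read 0.12, 0.40, 0.53, 0.78 and 1.88 at 0, 100, 200, 400 and 800 µM, higher at each dose than at the one before. Its tag of set 1 read 0.32, 0.71, 0.89, 1.16 and 1.99 and its tag of set 2 -0.09, 0.08, 0.17, 0.39 and 1.77, so both followed the same course with an offset between them. The slope was 0.39 ± 0.09 (SE; limma adjusted p = 0.07), with a 95% interval from 0.17 to 0.61. Without the 800 µM array the slope was 0.21. At 800 µM SSA2 stood 157th from the top of 3956 strains. On the 1600 µM array 1 tag remained and read 1.55.

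SSA4 stayed at the median: -0.06, 0.03, 0.10, -0.10 and 0.11 from 0 to 800 µM and -0.12 at 1600 µM. Its slope was 0.02, with a 95% interval from -0.11 to 0.15 (limma adjusted p = 0.832). SSA1 read -0.06, -0.47, -0.19 and -0.07 from 0 to 400 µM by its 1 tag and has no value at 800 or 1600 µM. It can therefore not be set beside SSA2 at the dose where SSA2 stood out. The SSA2 strain exceeded the SSA4 strain by 0.17, 0.36, 0.42, 0.88 and 1.77 at the 5 doses. This difference grew by 0.37 per step (exact permutation test over the 120 orders of the doses, two-sided, p = 0.0167, the smallest they can give; adjusted p = 0.0333 over 4 pairs). The spread of all strains widened with dose, from quartiles of -0.19 and 0.22 at 0 µM to -0.51 and 0.46 at 800 µM. How often other pairs of strains reach this p was not counted.

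The 2 exchange factors of the Hsp110 family, SSE1 the abundant form and SSE2 the stress-induced one, differed most at the highest dose. SSE1 read -0.13, 0.11, -0.35, -0.42 and -1.78 from 0 to 800 µM, by 1 tag, with no value at 1600 µM. Its values up to 400 µM lie inside the range and its 800 µM value below it, 335th from the bottom of 3956 strains. The slope was -0.38 ± 0.12 (limma adjusted p = 0.116), and -0.13 without the 800 µM array. SSE2 read 0.14, 0.30, 0.36, 0.17 and 0.38 and then 0.27 at 1600 µM, with a slope of 0.03 and a 95% interval from -0.09 to 0.16. The difference of SSE1 from SSE2 ran from -0.27 at 0 µM to -2.16 at 800 µM, a slope of -0.42 that did not pass (exact permutation p = 0.0667, adjusted p = 0.0889 over 4 pairs).

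Both J protein strains had low values, in different patterns. SIS1 read -0.57, -0.58, -0.12, -2.12 and -3.58 from 0 to 800 µM, with the break between 200 and 400 µM. At 400 µM its tags read -2.28 and -1.96, while at 0, 100 and 800 µM only the tag of set 1 had a value. The slope was -0.76 ± 0.22 (limma adjusted p = 0.0994), 93rd lowest of 3731; it was -0.42 without the 800 µM array. SIS1 is an essential gene, so haploid spores lacking it should not grow, and what cells these tags stand for in the haploid pool was not tested.

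YDJ1, whose loss leaves haploids alive but slow-growing, read 0.69, -1.19, -0.62, -2.80 and -1.30 by 1 tag. At 100 µM it was the 50th lowest of 4089 strains and at 400 µM the 48th lowest of 4122, and its 800 µM value lies just inside the range, whose lower end is -1.39. It also had the highest value of the 10 strains at 0 µM. The slope of -0.56 ± 0.24 did not pass (limma adjusted p = 0.204), and it ranged from -0.25 without the 0 µM array to -0.99 without the 800 µM array. The difference of YDJ1 from SIS1 changed sign along the doses, from 1.26 at 0 µM through -0.61, -0.50 and -0.68 to 2.28 at 800 µM (slope 0.20, exact permutation p = 0.7, adjusted p = 0.7).

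The HSP104 strain did not leave the background range at any haploid dose. It read -0.25, -0.15, -0.29, -0.23 and -0.10 from 0 to 800 µM and 0.56 at 1600 µM, where its tags read 0.65 and 0.46. Its slope was 0.02, with a 95% interval from -0.10 to 0.14 (limma adjusted p = 0.803).

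The small heat shock protein strains also stayed inside. HSP26, whose product is made on stress, read 0.27, -0.09, -0.04, -0.02 and 0.30 and then 0.50 at 1600 µM. HSP42, which gathers misfolded proteins into cytosolic deposits, read 0.22, 0.00, 0.13, 0.18 and 0.60 by 1 tag. The 95% intervals of their slopes were from -0.15 to 0.18 and from -0.06 to 0.25. HSP26 minus HSP42 was 0.05, -0.09, -0.17, -0.20 and -0.29 at the 5 doses, lower at each dose than at the one before (slope -0.08, exact permutation p = 0.0167, adjusted p = 0.0333 over 4 pairs). That whole change is smaller than the error of 1 tag, 0.41 at 800 µM.

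Ordered by level at 800 µM, the strains ran SIS1, SSE1, YDJ1, HSP104, SSA4, HSP26, SSE2, HSP42 and SSA2. Of the 8 gaps between neighbours 3 exceeded the 95% limit of the combined tag error: SIS1 below SSE1 by 1.80, YDJ1 below HSP104 by 1.21, and HSP42 below SSA2 by 1.28. These limits were between 0.80 and 1.13. They leave out differences between cultures and were not corrected for the 8 gaps, and the strains were sorted by these same values. SSE1 and YDJ1 were 0.48 apart, within the error, and so were all neighbours from HSP104 up to HSP42.

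**Figure D2:**
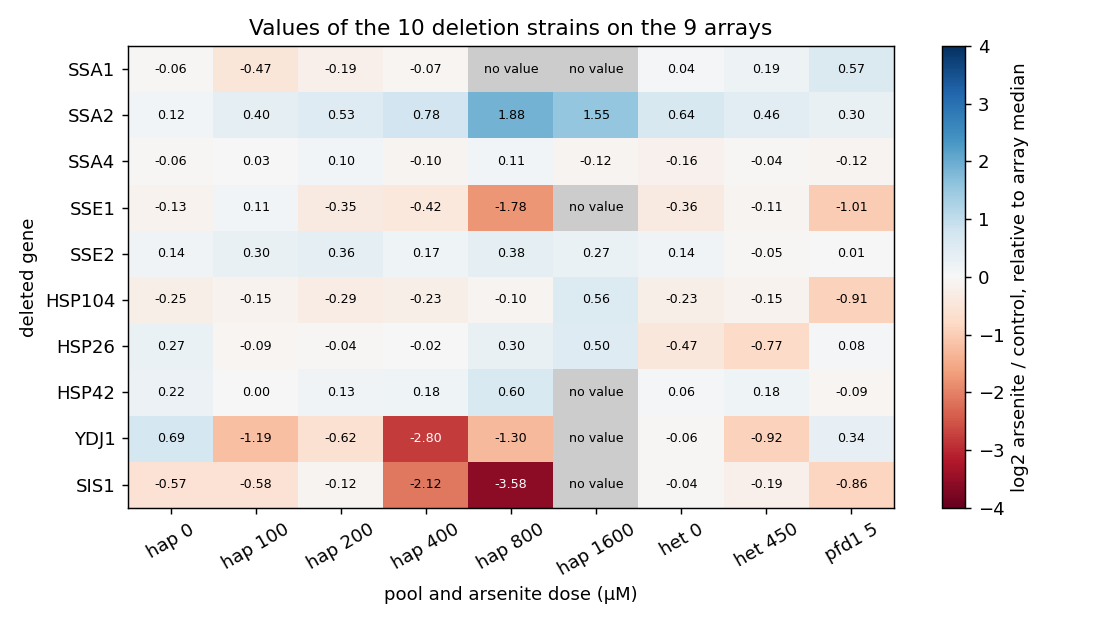
Log2 arsenite over control of the 10 strains (rows) on the 9 arrays (columns; hap, haploid; het, heterozygous diploid; doses in µM), relative to the array median, with red for loss and blue for gain. The lowest value is SIS1 at haploid 800 µM (-3.58) and the highest SSA2 at the same dose (1.88); grey cells have no value.

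At 1600 µM 5 members had a value (SSA2, SSA4, SSE2, HSP104 and HSP26), and 1 of 5 lay above the range, against 14.5% of all strains. The deposited median of that array, 2.99 toward loss, sets it apart from the other arrays, where medians lay between -0.09 and 0.12. SIS1, SSE1 and YDJ1, the low strains at 400 or 800 µM, had no value there. Neither had SSA1 and HSP42, which lay inside the range at every dose where they were measured.

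Strains most like the members were sought by the root mean square difference over the 5 haploid arrays from 0 to 800 µM, among 3731 strains. SSA2 was nearest to SAN1, lacking a nuclear ubiquitin ligase for misfolded proteins (0.09), then RSC1 of a chromatin remodeller (0.12) and YDL124W (0.17). SSE1 was nearest to ENT3 (0.12), a clathrin adaptor of the trans-Golgi and endosomes, MOT3 (0.14) and MRPL19 (0.15). SIS1 was nearest to SIN3 (0.22), of a histone deacetylase complex, RAD50 (0.28), of double-strand break repair, and CLB2 (0.31), a mitotic cyclin. YDJ1 was nearest to PDX1 (0.33), then CTK3 (0.57) and OPI3 (0.60). The differences listed for SSA2 and SSE1 are smaller than the tag error, 0.27 for 2 tags and 0.38 for 1 tag at 0 µM. Those listed for SIS1, read by 1 tag at 0, 100 and 800 µM, are also below the error of 1 tag. So is the difference of YDJ1 from PDX1. Which strain is nearest to each of these members is therefore not resolved, and a shared function was not tested.

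Of 8 other J protein strains, 0 passed in either direction, against 3.11% of all strains, and 2 of 8 lay above the range at 800 µM, against 7.36%. JJJ1, whose product acts with Hsp70 in releasing a factor from new large ribosomal subunits, read -0.09, 0.23, 0.17, 1.11 and 3.21 (slope 0.75, limma adjusted p = 0.0789). JJJ3, of diphthamide synthesis, read 0.04, -0.10, -0.20, 0.58 and 2.29 (slope 0.52, limma adjusted p = 0.127). The other 6 (APJ1, XDJ1, CAJ1, DJP1, HLJ1 and JJJ2) lay between 0.18 and 0.64 there. None of these 8 strains was as low as SIS1 or YDJ1 at 800 µM, and this contrast was not tested. J protein strains outside this list were not compared, so the low values are not shown to be particular to SIS1 and YDJ1.

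**Figure D3:**
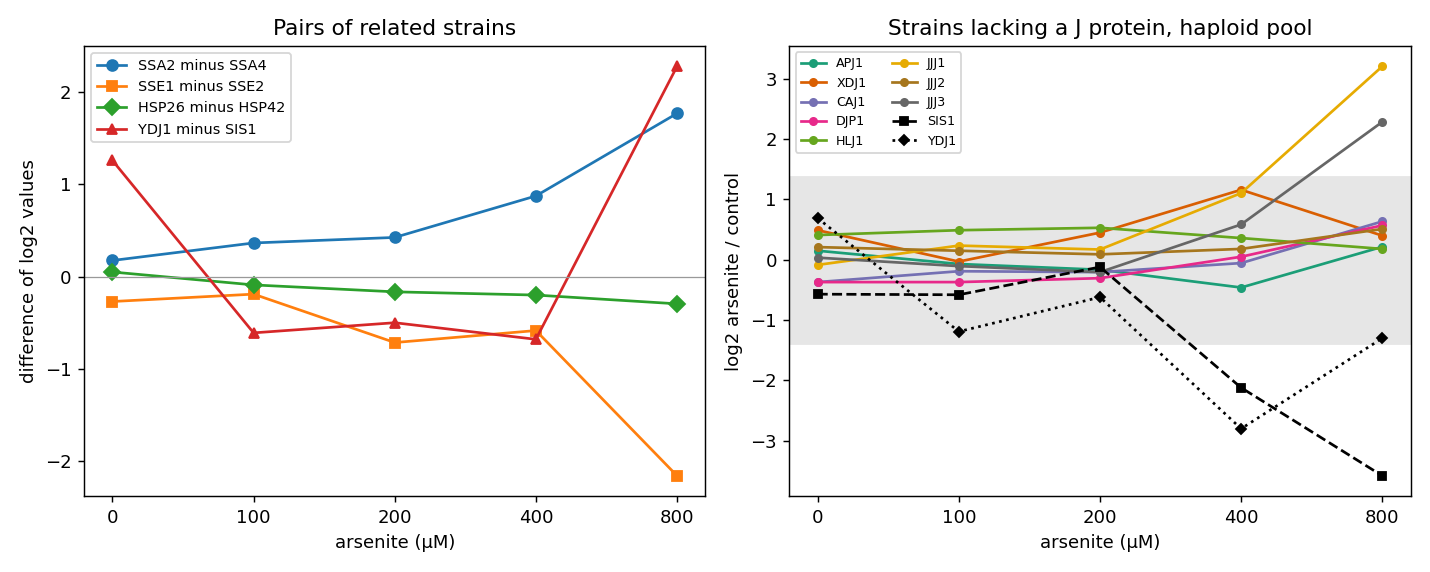
Left, differences of log2 values between pairs of related haploid strains by arsenite dose (µM): SSA2 minus SSA4 reaches 1.77 and SSE1 minus SSE2 -2.16 at 800 µM. Right, log2 arsenite over control of strains lacking a J protein, with the background range in grey: JJJ1 and JJJ3 lie above it at 800 µM and SIS1 below.

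Of 7 Hsp70 partner genes 4 had a value and 3 could be tested, with 0 of 3 called, against 3.11% of all strains. STI1, the Hsp70-Hsp90 organiser, read -0.46 at 800 µM, SGT2 -0.16 and SWA2 0.78. Of 10 stress regulators and protectants 6 could be tested, with 0 of 6 called, against the same 3.11%. All 6 lay inside the range at 800 µM, where 11.8% of all strains lay below it and 7.36% above. The lowest was MSN2, a general stress transcription factor, at -0.98 (slope -0.29, limma adjusted p = 0.07). HSF1, the essential heat shock factor, had no haploid value. Of 9 genes for aggregate sorting and turnover of misfolded proteins 8 had a value at 800 µM. Of these 8, 2 lay below the range (RPN4 and UBI4), against 11.8% of all strains, and 1 above (SAN1), against 7.36%. Of the 9 genes 7 could be tested, and 1 of 7 fell, against 3.11% of all strains called in either direction. That was the polyubiquitin gene UBI4, at -5.01 at 800 µM (slope -1.38 ± 0.20, limma adjusted p = 0.0395). RPN4, the proteasome gene activator, had no 0 µM value and read -2.27 and -3.65 at 400 and 800 µM. SAN1 read 1.93 at 800 µM (slope 0.41, limma adjusted p = 0.0768), and BTN2 and CUR1, which sort aggregates, 0.75 and 0.83.

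**Figure D4:**
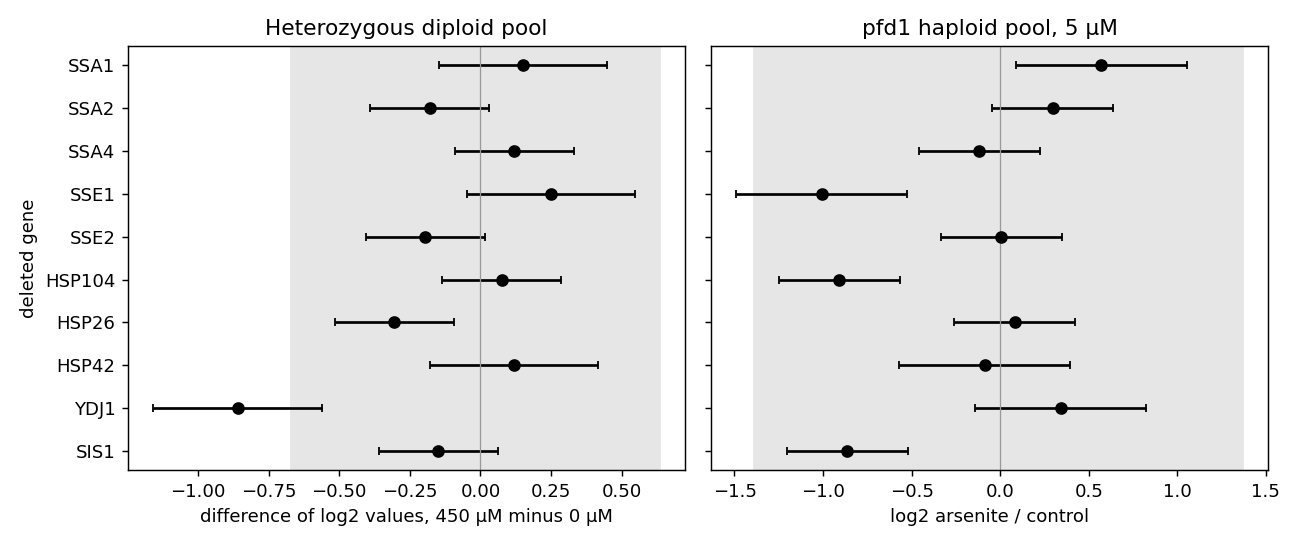
Left, 450 µM minus 0 µM difference of log2 values in heterozygous diploids, with the 5th to 95th percentile of all strains in grey: YDJ1 at -0.86 lies outside it. Right, log2 arsenite over control of pfd1 haploids at 5 µM, with the haploid background range in grey: all 10 strains lie inside. Bars are the tag error.

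Heterozygous diploids keep 1 working copy and can be assayed for essential genes. Among them YDJ1, read by 1 tag, had the largest loss of the 10 members. It read -0.06 at 0 µM and -0.92 at 450 µM, a difference of -0.86 ± 0.30 (tag error), 129th lowest of 4684 strains. It was the 1 of 10 members below the range at 450 µM, against 2.41% of all strains. The differences of the other 9 lay between -0.30 and 0.25, and the median of the 10 was -0.04 against -0.01 for all strains. SIS1, far down in the haploid pool, differed by -0.15 ± 0.21, with tags at -0.21 and -0.17 at 450 µM.

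Several heterozygous values were already off the median without arsenite. SSA2 read 0.64 at 0 µM and 0.46 at 450 µM, a difference of -0.18. HSP26 read -0.46 and -0.77, a difference of -0.30 on which its tags disagreed: -0.87 from the tag of set 1 and 0.28 from that of set 2. SSE1, low in haploids at 800 µM, read -0.36 and -0.11, a difference of 0.25 ± 0.30.

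In haploids lacking PFD1, 0 of 10 members lay outside the haploid background range, against 10.1% of all strains. The lowest were SSE1 at -1.01, HSP104 at -0.91 and SIS1 at -0.86. The HSP104 tags read -0.73 (set 1) and -1.09 (set 2) there, with an error of 0.34 for their mean. On the other 8 arrays the tag of set 1 lay between -0.63 and 0.65, so its pfd1 value is close to its lowest elsewhere, and the tag of set 2 between -0.17 and 0.46. The SIS1 tags disagreed, at -0.03 and -1.70. SSA1 was highest at 0.57, SSA2 read 0.30 and YDJ1 0.34, and the other 4 lay between -0.12 and 0.08. The media of this array also differ in uracil, and the pfd1 disruption carries URA3 in a ura3delta0 background. Plates without uracil therefore also select for the disruption. Whether cells without it grew on the control plates was not checked. The contributions of 5 µM arsenite, of uracil and of the PFD1 loss therefore cannot be told apart. The uracil synthesis strain URA1 read -5.23 there.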

How the data were processed

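The deposited table holds, for each tag probe, 1 log ratio between an array's channels, read here as log2. Its log base, centring, direction, scanner software and filters were not given in the sources used here. Asymmetric PCR with dye-labelled primers copied the tags out of genomic DNA, per the labels' protocols. No dye swap is labelled, so a tag's dye bias stays in single-array values and in differences between strains on 1 array. It cancels in slopes and in differences between arrays only if it is the same on each array, which was not checked.

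Of 22575 probes 9727 had a value, and 8765 of these name 1 gene; names follow the platform annotation, matched to the R64 gene table (8 of 18794 annotated probes unmatched). The sign was turned, tags were averaged per strain, and each array was centred on its median strain. Tag sets 1 and 2 are the probes before and after an offset of 10971 in the table. Slopes were fitted with limma 3.58.1 in R 4.3.3 (two-sided, Benjamini-Hochberg over 3731 strains, called under 0.05). On simulated straight responses for this fit, 79% of 100 strains with a slope of 0.5 and 95% of 100 with a slope of 1 were recovered. Responses confined to the highest doses were not simulated, so these shares do not give the power for them. Among the measured strains SIS1, with a slope of -0.76, was not called. Of 6 pairs of related strains 4 had both members at every dose. Named genes were all 10 members, 4 related lists (giving values for those that passed or left the range at 800 µM, and a few others chosen after their values were seen), and the 3 nearest strains of each member outside the range on an arsenite array. Members, lists and the choice to leave 1600 µM out of the main test were made with earlier results of these data known. Tag sequences were not used here. The number of arrays limits the precision. Alternatives covered normalization, variance prior, contrast, dose scale, tag set, tag filter, range width and leaving out each dose.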

Additional observations from a re-analysis of the deposited data

How the results depend on the processing

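No paired analysis was possible because each group has 1 array. Members called numbered 0 in each fit, of 9 in the main one and of 5 to 10 tested in the others, except with dose in µM (3 of 9: SIS1 -3.41, SSE1 -1.76 and SSA2 1.70 per 800 µM; 27.6% of all strains) and with tag set 1 alone (1 of 8: SSA2, slope 0.37, limma adjusted p = 0.043; 119 of 2985 strains, 3.99%). Over all strains limma called 116 (108 lower and 8 higher). This became 0 with the 1600 µM array, with a trended and robust prior, or with arsenite contrasted with 0 µM alone (674, 1118 and 56 at an unadjusted p under 0.05). It became 75 with quantile normalization (43 lower, 32 higher), 179 when arrays were scaled by their median absolute deviation (136 and 43), 1028 with dose in µM (554 and 474), 69 with tag set 2 and 48 with 2 tags on every array. Leaving out each dose array gave between 7 and 116 calls, with 7 without 100 µM, 15 without 400 µM, 32 without 800 µM and 56 without 200 µM, and 0 members called each time. With an array left out, slopes lay between -1.10 and -0.42 for SIS1, 0.21 and 0.47 for SSA2, -0.57 and -0.13 for SSE1, and -0.99 and -0.25 for YDJ1 (nearest 0 without 800 µM for the first 3, without 0 µM for YDJ1). SIS1 had a slope of -0.09 with quantile normalization. Slopes near 0 changed sign: HSP26 to -0.0232 (quantile), -0.0273 (median absolute deviation), -0.23 (against 0 µM) and between -0.0815 and 0.12 with an array left out, SSE2 to -0.0128 and -0.0166 under those scalings, SSA4 to -0.0083 with 1600 µM and between -0.0045 and 0.0407 with an array left out, and HSP104 to -0.002 with tag set 2 and between -0.0095 and 0.0336 with an array left out. The cause was not tested. The pairs SSA2 with SSA4 (0.37 in either tag set, exact permutation adjusted p = 0.05 and 0.0833) and HSP26 with HSP42 (-0.085 in tag set 1, adjusted p = 0.075) lost their call, where fewer pairs could be formed. With the central 95% as the range, members outside at 800 µM numbered 4 of 9 in place of 3 (34.9% of all strains), with YDJ1 then below it at 100 and 800 µM too. The same range, chosen for the other pools after seeing the data, gave 2 of 10 in place of 1 at heterozygous 450 µM (8.18% of all strains) and 3 of 10 in place of 0 in pfd1 haploids (23.0%). Strains with 1 tag (SSA1, SSE1, HSP42 and YDJ1) have no second tag to check their values.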

Other observations

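Strains deleted for the 2 genes on either side of each member were read beside it, after the values were seen. HSP104 and SSA2 are separated by PAU17 alone, and the PAU17 strain read -0.49 and HSP104 -0.10 at 800 µM where SSA2 read 1.88. POM33, a nuclear pore membrane protein on the other side of SSA2, read 0.43 (slope 0.19, limma adjusted p = 0.12). The strains next to SIS1 on one side, ASI3 and IDP3, read -0.61 and 0.45 at 800 µM, those of SSE1, DPC25 and SYH1, -0.24 and 0.15, and those of YDJ1, AQR1 and MTQ1, -0.48 and -0.36. None of these 6 lay outside the background range there.

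Near SSE2, which was flat with dose, SEC66 and PEX32 lay outside the background range at 800 µM. Of all strains 11.8% lay below it there and 7.36% above. SEC66, a subunit of the endoplasmic reticulum translocon, fell with a slope of -0.77 (limma adjusted p = 0.0373) and read -2.58 at 800 µM, and PEX32, a peroxisomal membrane protein, read 1.94 there (slope 0.42, limma adjusted p = 0.0933). In pfd1 haploids PEX32 read 2.08 and SEC66 -1.86. STI1, which read -0.46 in haploids at 800 µM, stood at 2.42 in pfd1 haploids.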
